A study of Mus musculus with 6 samples.

Results

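The genes of sterol synthesis and of fatty acid synthesis were examined in neural stem cells that were sorted from the ventricular-subventricular zone of adult mice. They are 36 genes that were taken by name from the textbook pathway: 18 sterol enzymes, 6 regulators and carriers of the sterol pathway, and 12 fatty acid enzymes. The arrays carried a probe set for 35 of the 36, of 18193 genes with a probe set that names 1 gene, and Acat2 was not analysed here. After a filter on dim genes 34 of the 36 were tested, of 11576 genes in all, and Acacb lay under the filter.

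The study set activated neural stem cells (GFAP::GFP+CD133+EGFR+CD24-) against quiescent neural stem cells (GFAP::GFP+CD133+CD24-), with 3 arrays of separate biological replicates in each group. Both groups carried green fluorescent protein driven by the GFAP promoter and bore CD133 but not CD24 at the surface, and only the definition of the activated sort names the EGF receptor. A sort on a reporter collects the cells in which that promoter is or was recently active, which in this tissue can include other glia. Strain, sex and age in weeks are not given in the labels, nor is how many animals went into a replicate.

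Cholesterol is built from acetyl-CoA through mevalonate, isoprenoid units, squalene and lanosterol, by enzymes that sit for the most part in the endoplasmic reticulum. Fatty acids are built from the same acetyl-CoA by a carboxylase and a synthase, then lengthened by elongases and given double bonds by desaturases. Much of both pathways is transcribed under the SREBP factors, which the escort protein SCAP carries to the Golgi for cleavage when sterols are low and which INSIG proteins hold back when sterols are high. In the brain these lipids are made locally, by astrocytes and, for myelin, in large amounts by oligodendrocytes.

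Each value below is the log2 MAS5 signal of a gene's brightest probe set, and each difference is the activated mean minus the quiescent mean on that scale. A gene was called at an adjusted p under 0.05 in limma's moderated test, adjusted over all genes tested with the Benjamini-Hochberg method. Signals of different probe sets have no common scale, so levels are compared between arrays and never between genes.

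The arrays of the groups also differed in technical measures. The hybridisation controls averaged 13.7 ± 0.05 on the activated arrays and 14.3 ± 0.53 on the quiescent arrays (SD, n = 3 each), and the background averaged 4.60 ± 0.07 on the activated arrays and 5.67 ± 0.37 on the quiescent arrays on the same log2 scale (exact permutation test, two-sided p = 0.1 for both, the smallest that 3 against 3 allows). The 3′ minus 5′ difference of the Gapdh control probe sets, a sign of RNA quality, was 1.19 to 1.51 on the activated arrays and 1.54 to 2.59 on the quiescent arrays without overlap (exact permutation test, two-sided p = 0.1), while that of actin averaged 0.07 ± 0.16 on the activated arrays and -0.05 ± 0.16 on the quiescent arrays (p = 0.4). The part of these measures in the differences was not tested. Scaling the arrays to the hybridisation controls moved the median difference of all genes to 0.66, against 0.01 as deposited, and the calls to 3059 higher and 943 lower, against 2004 higher and 2040 lower. Under that scaling 76.4% of the called genes were higher in activated cells, against 49.6% as deposited. Which scaling is closer to RNA per cell was not tested, and every difference below is therefore relative to the other genes on the array.

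Markers of the sorted cells followed the labels. All 11 tested genes of the cycling list were called higher in activated cells, and all 12 of the astrocyte and quiescent stem cell list were called lower. Gfap, whose promoter drives the reporter, had signals of 6.21, 5.91 and 7.90 in activated cells and 10.04, 11.32 and 11.20 in quiescent cells, so that its own transcript was low in the activated sort. Markers listed for other cell types moved as well. Over all 11576 genes tested, 17.6% were called lower and 17.3% higher. All 11 tested markers of mature oligodendrocytes were called lower in activated cells, and their summed linear signal ranged from 2457 to 6465 on the activated arrays and from 22696 to 89045 on the quiescent arrays. None of those 11 markers was at 0 on any array. The endothelial markers had summed signals of 295 to 348 on the activated arrays, against 1581 to 4493 on the quiescent arrays. Of the pericyte markers 3 of 4 were called lower, with sums of 296 to 539 on the activated arrays and 4600 to 8598 on the quiescent arrays. Of the ependymal markers 4 of 5 were called lower, with sums of 389 to 586 on the activated arrays and 2279 to 2541 on the quiescent arrays, and neither of the 2 tested microglial markers was called, with sums of 209 to 264 on the activated arrays and 534.5 to 1044 on the quiescent arrays. Of the neuroblast and neuron markers 6 of 10 were called higher, with sums of 35119 to 41816 on the activated arrays and 10569.5 to 11995 on the quiescent arrays. Both sorts left out CD24+ cells, and whether the activated stem cells themselves carry these transcripts was not tested. Emcn, Abcc9, Higd1b and C1qc were listed at 0 on at least 1 array, and the activated arrays were all at or below background for 5 endothelial, 3 pericyte, 2 ependymal and 4 microglial markers. Of the tested markers 5 oligodendrocyte, 3 endothelial, 3 pericyte, 2 ependymal, 2 microglial and 2 astrocyte genes had an activated mean under the filter and were tested only because their quiescent signals were high, and the counts lean towards lower calls for that reason. In the neuroblast and the cycling list 1 gene each was tested only through its activated signals. The part of these cells in the lipid gene differences was not tested, and in sorted bulk samples fewer cells of a type and less RNA per cell cannot be told apart.

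Across the pathway 11 of the 34 tested genes were called lower in activated cells and none was called higher. All 34 had a mean above the filter in each group. Among all genes tested, 17.6% were called lower and 17.3% higher, 34.9% in all. At an unadjusted limma p under 0.05 the counts were 13 lower and 0 higher. The 11 were 6 sterol enzymes (Pmvk, Fdft1, Lss, Msmo1, Sc5d and Dhcr7), 1 regulator (Insig2) and 4 fatty acid enzymes (Elovl5, Scd1, Scd2 and Fads1). Whichever array was left out, 9 of the 11 stayed called, Insig2 and Sc5d being the exceptions. The differences ran from -4.14 for Scd1, the main stearoyl-CoA desaturase of fat and liver, to 0.80 for Fasn, the fatty acid synthase, with 23 of the 34 below 0. Their median was -0.38 beside 0.01 for all genes tested, but the size of that contrast depended on the filter. With no filter the medians were -0.41 for the 35 genes and -0.39 for all 18193 genes. With a stricter filter, at the median signal of all probe sets, they were -0.38 for the pathway and 0.10 for all genes tested. For 13 of the 34 genes every activated array lay below every quiescent array, and for none did every activated array lie above; over all genes the shares were 25.5% and 25.1%, or 50.7% in either direction.

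**Figure D1:**
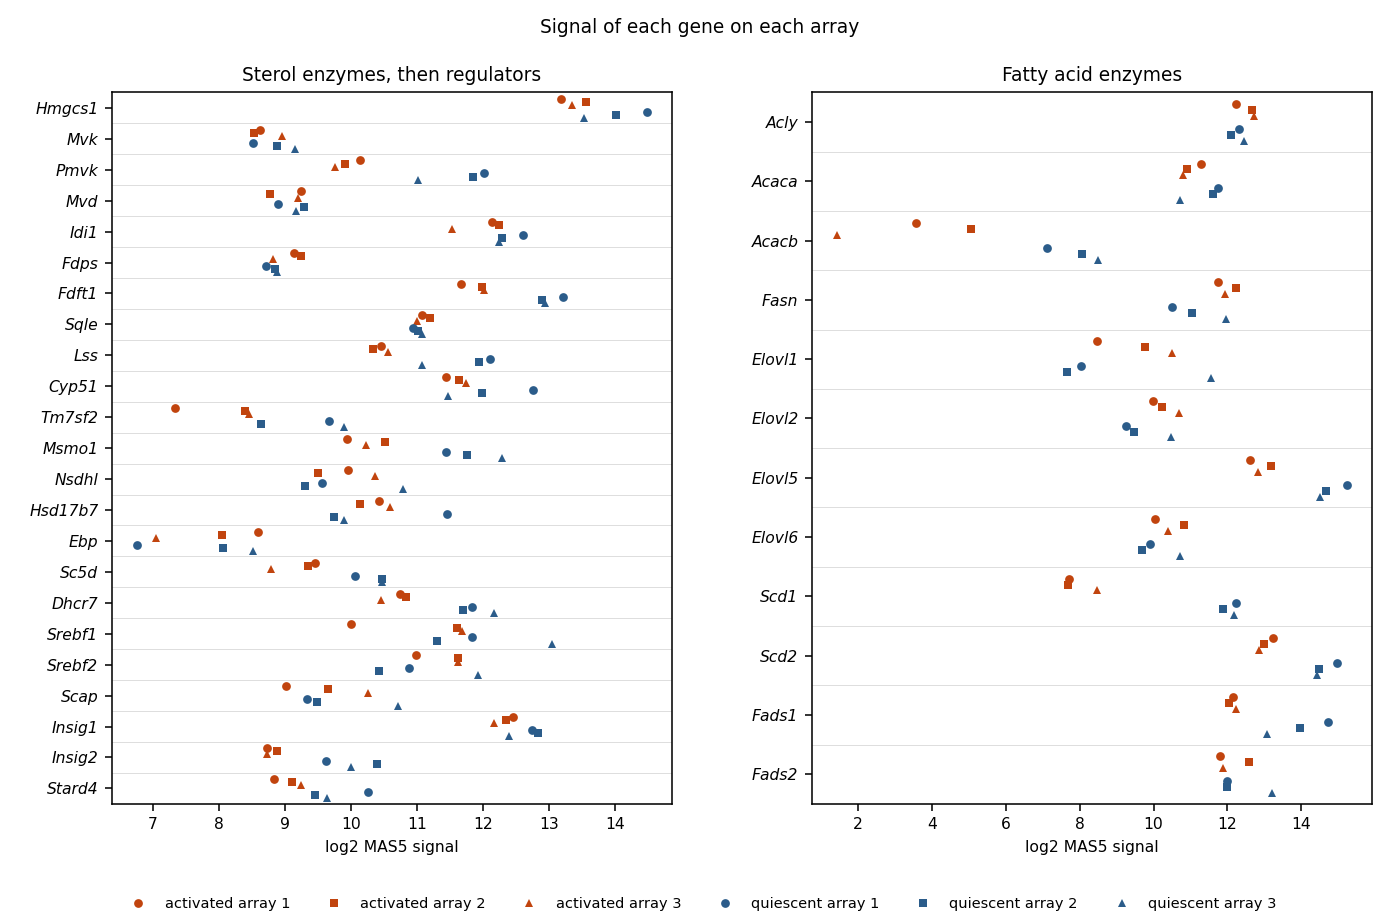
Log2 MAS5 signal (x axis) of the brightest probe set of each gene with a probe set (rows), for the 3 activated arrays (orange, upper points of a row) and the 3 quiescent arrays (blue, lower points of a row). The activated points lie to the left of the quiescent points with no overlap for 13 tested genes, by the widest margin for Scd1, and for Acacb, which was not tested.

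The sterol enzymes were called lower at 6 of 17 tested genes, or 35.3%, with a median difference of -0.46. None was called higher. By stretch of the route, 1 of 6 was called lower in the mevalonate steps (16.7%), 2 of 3 between squalene and lanosterol, and 3 of 8 between lanosterol and cholesterol (37.5%). Among all genes tested 17.6% were called lower, so the count in the mevalonate steps is near that share.

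In the mevalonate steps the gene called was Pmvk, phosphomevalonate kinase. Its signals were 10.14, 9.92 and 9.76 in activated cells and 12.02, 11.86 and 11.01 in quiescent cells. All 3 activated arrays lay below all 3 quiescent arrays, of which the third was the lowest. Pmvk fell by 1.69 ± 0.33 (SE), which is 3.23-fold lower in activated cells (adjusted p = 0.00288). Hmgcs1, the synthase that condenses acetyl-CoA with acetoacetyl-CoA, had signals of 13.18, 13.56 and 13.36 in activated cells and 14.48, 14.02 and 13.53 in quiescent cells. The first and second quiescent arrays stood above the activated arrays and the third fell among them. The difference was -0.64 ± 0.27 with an adjusted p of 0.0949, and over the fits that left out 1 array it ran from -0.88 without the third quiescent array (adjusted p = 0.00824, in a fit that called 18.8% of all genes lower) to -0.40 without the first (adjusted p = 0.202). The 4 other tested probe sets of Hmgcs1 differed by 0.01, -0.47, 0.09 and 0.51, and none was called. Idi1, which isomerises isopentenyl diphosphate, differed by -0.41 with a 95% interval of -1.01 to 0.19.

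The remaining enzymes of these steps had intervals on both sides of 0. Mvk, the mevalonate kinase, differed by -0.15 (interval -0.99 to 0.70) and Mvd, the decarboxylase that follows Pmvk, by -0.05 (-0.83 to 0.74). Fdps, which makes farnesyl diphosphate, differed by 0.26 (-0.53 to 1.04). These intervals leave room for a difference of more than 0.5 log2 units in either direction for each of the 3 genes.

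Between squalene and lanosterol both the first and the last enzyme were called. Fdft1, squalene synthase, stands at the branch where farnesyl diphosphate is committed to sterols. It had signals of 11.66, 11.99 and 12.02 in activated cells and 13.21, 12.89 and 12.94 in quiescent cells, with a gap between the groups. Fdft1 fell by 1.12 ± 0.24, or 2.18-fold (adjusted p = 0.00474). That call belongs to 1 probe set: the other tested probe set of Fdft1 differed by -0.21, with an adjusted p of 0.646. Lss, lanosterol synthase, had signals of 10.45, 10.34 and 10.57 in activated cells and 12.10, 11.94 and 11.08 in quiescent cells. The groups did not overlap, and the third quiescent array came closest to the activated arrays. Lss fell by 1.25 ± 0.32, or 2.39-fold (adjusted p = 0.0114). Sqle, the squalene epoxidase between them, kept signals of 11.08, 11.20 and 11.00 in activated cells and 10.94, 11.02 and 11.08 in quiescent cells. The arrays of the groups intermingled, and the difference was 0.08 with an interval of -0.47 to 0.63.

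From lanosterol onward the lowest adjusted p belonged to Msmo1, the oxidase that starts removal of the methyl groups at carbon 4 of the sterol ring. Its signals were 9.93, 10.52 and 10.23 in activated cells and 11.44, 11.76 and 12.28 in quiescent cells. All activated arrays lay well below the quiescent arrays. Msmo1 fell by 1.60 ± 0.31, or 3.03-fold (adjusted p = 0.00283), and its other tested probe set fell by 2.55 ± 0.54. Dhcr7, which reduces 7-dehydrocholesterol to cholesterol in the last step of one branch, had signals of 10.75, 10.83 and 10.45 in activated cells and 11.84, 11.69 and 12.16 in quiescent cells. Those groups were also separate, and Dhcr7 fell by 1.22 ± 0.26, or 2.33-fold (adjusted p = 0.00536). Sc5d, the desaturase that acts just before Dhcr7, had signals of 9.45, 9.35 and 8.79 in activated cells and 10.06, 10.47 and 10.47 in quiescent cells. The groups did not overlap, and Sc5d fell by 1.14 ± 0.33, or 2.21-fold (adjusted p = 0.0225). Its other tested probe sets differed by -0.96 (adjusted p = 0.0945) and -0.56 (adjusted p = 0.303), and neither was called. The call of Sc5d was lost when the second activated array, the third activated array or the second quiescent array was left out, with adjusted p-values of 0.0515, 0.0906 and 0.0669.

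Tm7sf2, a sterol reductase of the same stretch, had signals of 7.33, 8.40 and 8.46 in activated cells and 9.67, 8.64 and 9.89 in quiescent cells. Its groups did not overlap, with the second quiescent array closest to the activated arrays. The difference was -1.34 ± 0.49, and the adjusted p of 0.0546 missed the threshold. Without the second quiescent array it was -1.72 (adjusted p = 0.0294), and without the first activated array -0.97 (adjusted p = 0.179). Cyp51, the lanosterol demethylase, differed by -0.46 ± 0.33 (adjusted p = 0.292), and by -0.76 without the third quiescent array (adjusted p = 0.0474) but -0.12 without the first (adjusted p = 0.764). Its 2 other tested probe sets differed by -0.90 and 0.51 and were not called.

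Nsdhl and Hsd17b7, which complete the removal of those methyl groups, differed by 0.06 (interval -0.89 to 1.02) and 0.02 (-0.95 to 0.99). Ebp, the sterol isomerase, differed by 0.11 with the widest interval of the sterol enzymes, -1.23 to 1.45. Its arrays ran from 7.05 to 8.59 in activated cells and from 6.77 to 8.52 in quiescent cells, so that each group spread over more than a log2 unit.

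**Figure D2:**
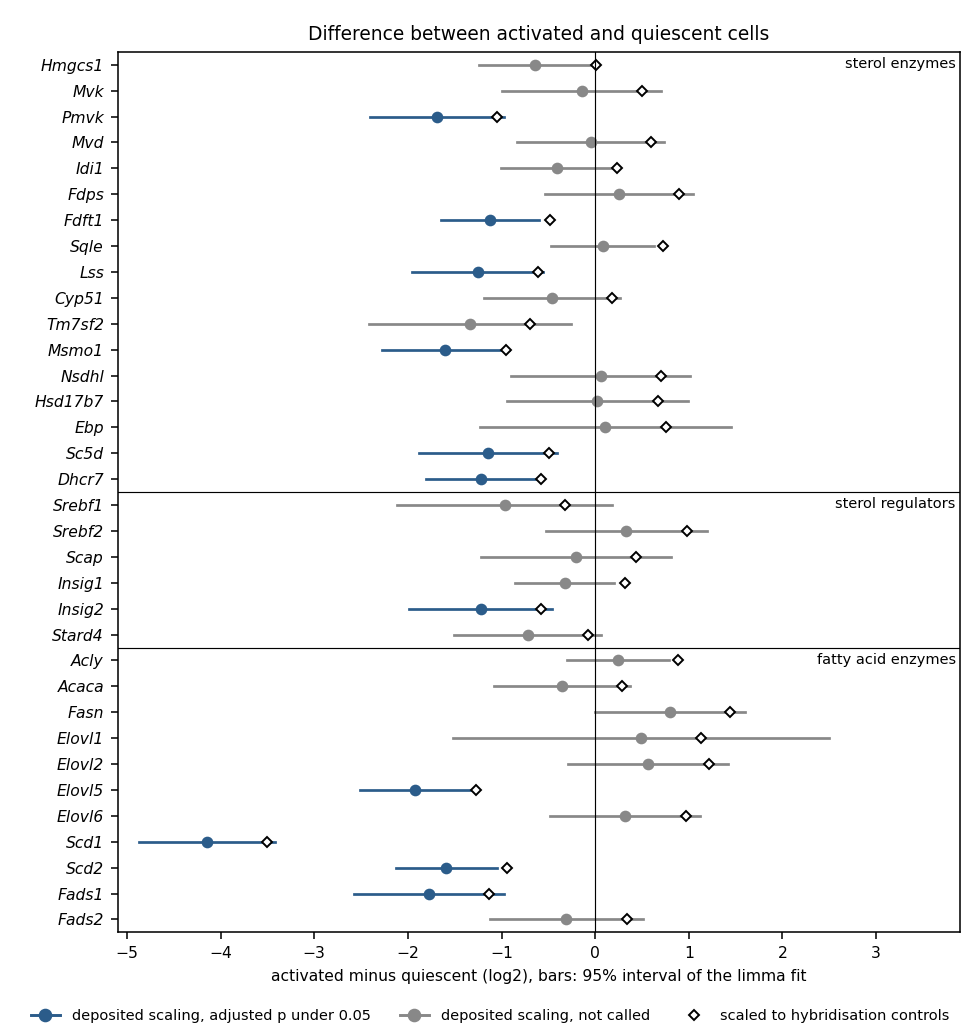
Difference between activated and quiescent cells in log2 units (x axis) for each of the 34 tested genes (rows), with the 95% interval of the limma fit as a bar; blue points passed an adjusted p of 0.05 and grey points did not, and open diamonds give the difference after scaling to the hybridisation controls. All 11 blue points lie left of 0, and the diamonds sit to the right of every point.

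The promoters of the genes are shown because many sterol genes share letters that bind the factors acting with SREBP. RefSeq windows of build GRCm38.p6 were matched by symbol for 29 of the 36 genes, each window running from 250 bases before to 50 bases after a transcript start. No window was matched for Fdps, Fdft1, Sqle, Stard4, Scd1, Scd2 and Fads1. The motif counts therefore leave out Fdft1, Scd1, Scd2 and Fads1, which were called lower. A gene was counted when any of its windows held the motif on either strand. The motifs were CCAAT, the box that NF-Y binds; GGGCGG, the GC box of the Sp1 family; TCACNCCAC, one form of the sterol regulatory element; and CACGTG, the E box. None of the 4 motifs contains another, and separate matches may overlap in a window.

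CCAAT occurred in 14 of 15 sterol enzyme genes with a window (93.3%), in 4 of 5 regulators and in 5 of 9 fatty acid enzymes (55.6%). It occurred in 41.1% of all 27025 genes and in 43.3% of the 9431 tested genes with a window. The GC box was found in the same numbers of sterol enzymes, 14 of 15, in 5 of 5 regulators and in 4 of 9 fatty acid enzymes, beside 38.2% of all genes and 69.9% of the tested ones. The sterol element in that exact spelling was found in Hmgcs1 alone of the 29, beside 1.44% of all genes, and the E box in 6 of the 29 (20.7%) beside 8.09% of all genes and 11.9% of the tested ones. These matches describe letters and not bound sites. Genes called lower and genes not called both carried the CCAAT box, the GC box and the E box, while Hmgcs1, the only gene with the sterol element, was not called. Upstream sequence of a pair of called genes (Msmo1 and Elovl5) and a pair of genes not called (Hmgcs1 and Idi1) is printed 5′ to 3′ on the gene's strand, with the letters of matched motifs in capitals (ATTGG and CCGCCC are CCAAT and GGGCGG read on the opposite strand). The windows are chr8:64733579-64733828 on the minus strand for Msmo1, chr9:77917115-77917364 on the plus strand for Elovl5, chr13:119690101-119690350 on the plus strand for Hmgcs1 and chr13:8885356-8885605 on the plus strand for Idi1.
Msmo1: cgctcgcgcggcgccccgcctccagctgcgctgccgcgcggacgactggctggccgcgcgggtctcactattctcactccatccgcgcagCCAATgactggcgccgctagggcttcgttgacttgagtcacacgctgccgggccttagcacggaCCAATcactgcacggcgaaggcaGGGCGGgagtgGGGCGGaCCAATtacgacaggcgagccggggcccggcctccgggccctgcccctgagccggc
Elovl5: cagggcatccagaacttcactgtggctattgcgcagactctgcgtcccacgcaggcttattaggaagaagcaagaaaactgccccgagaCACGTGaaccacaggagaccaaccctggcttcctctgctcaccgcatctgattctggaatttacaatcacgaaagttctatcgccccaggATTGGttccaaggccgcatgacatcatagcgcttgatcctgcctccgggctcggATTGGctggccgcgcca
Hmgcs1: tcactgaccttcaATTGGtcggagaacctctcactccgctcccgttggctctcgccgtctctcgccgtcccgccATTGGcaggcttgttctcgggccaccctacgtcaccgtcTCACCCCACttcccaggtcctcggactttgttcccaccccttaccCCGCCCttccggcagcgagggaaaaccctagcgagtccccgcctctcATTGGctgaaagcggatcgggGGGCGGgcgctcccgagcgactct
Idi1: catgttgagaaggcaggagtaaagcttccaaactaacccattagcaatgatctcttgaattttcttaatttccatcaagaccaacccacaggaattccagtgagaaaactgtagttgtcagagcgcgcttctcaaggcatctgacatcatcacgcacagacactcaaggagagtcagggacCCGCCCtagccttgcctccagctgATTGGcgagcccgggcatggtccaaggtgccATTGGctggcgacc

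Msmo1 held 3 CCAAT and 2 GC boxes in the printed stretch and Elovl5 2 CCAAT boxes, 1 E box and no GC box. Hmgcs1 held 3 CCAAT boxes, 2 GC boxes and the sterol element, and Idi1 2 CCAAT boxes and 1 GC box. Both pairs held CCAAT boxes, but genes picked for printing cannot show whether a motif goes with a call.

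Among the regulators and carriers, 1 of 6 was called lower and none higher, and 5 of the 6 differences lay below 0, with a median of -0.52. That 16.7% called lower is near the 17.6% of all genes tested. The median of all genes tested was 0.01. The gap between the medians was -0.14 with no filter and -0.62 with the stricter filter at the median signal. The gene called was Insig2, which retains the SREBP and SCAP complex in the endoplasmic reticulum. Its signals were 8.73, 8.88 and 8.73 in activated cells and 9.62, 10.40 and 10.0002 in quiescent cells. Each activated array lay below each quiescent array, and the activated arrays were close together. Insig2 fell by 1.22 ± 0.35, or 2.34-fold (adjusted p = 0.0198), another of its probe sets fell by 1.41, and the remaining one differed by -0.32 (adjusted p = 0.667). Leaving out any activated array or the second quiescent array ended the call, at adjusted p-values of 0.0503 to 0.0719. Insig1, its relative that SREBP itself induces, had signals of 12.46, 12.35 and 12.17 in activated cells and 12.74, 12.83 and 12.39 in quiescent cells. The third quiescent array fell among the activated arrays, and the difference of -0.33 had an interval of -0.85 to 0.20.

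The 2 SREBP genes differed in sign, without a call for either. Srebf1, whose products drive mainly fatty acid genes, had signals of 10.0025, 11.61 and 11.68 in activated cells and 11.84, 11.31 and 13.05 in quiescent cells. The first activated array was the lowest and the third quiescent array the highest, and the difference was -0.97 ± 0.52 (adjusted p = 0.170). Srebf2, the sterol member of the pair, had signals of 10.98, 11.62 and 11.62 in activated cells and 10.87, 10.42 and 11.93 in quiescent cells. The third quiescent array exceeded every activated array, and the difference was 0.33 (interval -0.53 to 1.19). Another probe set of Srebf2 differed by -0.68. Scap, the escort, differed by -0.21 with an adjusted p of 0.749. Stard4, a carrier of cholesterol between membranes, had no overlap between its activated arrays (8.84, 9.10 and 9.24) and its quiescent arrays (10.25, 9.46 and 9.64), and its difference of -0.72 ± 0.36 was not called (adjusted p = 0.138).

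The fatty acid enzymes are given by step. None of the 3 tested synthesis enzymes was called, 1 of 4 elongases was called lower, and 3 of 4 desaturases were called lower; the medians were 0.24, 0.41 and -1.68. In all 4 of 11 tested fatty acid enzymes (36.4%) were called lower and none higher, beside 17.6% lower and 17.3% higher among all genes tested. Whether the steps differ from one another was not tested.

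Among the tested genes of the pathway the largest difference was in a desaturase. Scd1, which places the first double bond in stearate and palmitate, had signals of 7.72, 7.69 and 8.46 in activated cells and 12.23, 11.89 and 12.19 in quiescent cells. The groups were more than 3 log2 units apart at their closest arrays. Scd1 fell by 4.14 ± 0.33, or 17.7-fold (adjusted p = 3.71e-05), and its other tested probe set fell by 2.25 (adjusted p = 0.0103). Scd2, the form most abundant in brain, had signals of 13.24, 12.998 and 12.85 in activated cells and 14.97, 14.47 and 14.42 in quiescent cells. Those groups were separate too, and Scd2 fell by 1.59 ± 0.24, or 3.01-fold (adjusted p = 0.000749). Scd1, Scd2 and Scd3 are close relatives in sequence, so part of a probe set's signal may come from another member of the family.

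Fads1, the delta-5 desaturase of polyunsaturated fatty acids, had signals of 12.16, 12.04 and 12.24 in activated cells and 14.71, 13.96 and 13.08 in quiescent cells. The activated arrays agreed closely, while the quiescent arrays spread over more than a log2 unit above them. Fads1 fell by 1.77 ± 0.36, or 3.42-fold (adjusted p = 0.00393), and its other tested probe set fell by 2.78 ± 0.44. Fads2, the delta-6 desaturase next to Fads1 on the chromosome, depended on the probe set. By the brightest one its signals were 11.79, 12.58 and 11.89 in activated cells and 11.98, 11.99 and 13.21 in quiescent cells, which overlap. That difference was -0.31 with an interval of -1.12 to 0.51, whereas the 2 dimmer probe sets fell by 3.05 ± 0.71 (adjusted p = 0.00875) and fell by 2.30 ± 0.46 (adjusted p = 0.00373). With the mean of its probe sets Fads2 was called, at -1.88 (adjusted p = 0.00145).

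Of the elongases the gene called was Elovl5, which lengthens polyunsaturated fatty acids and works on the products of Fads2. Its signals were 12.62, 13.17 and 12.83 in activated cells and 15.22, 14.66 and 14.50 in quiescent cells. There was a gap of more than a log2 unit between the groups. Elovl5 fell by 1.92 ± 0.26, or 3.79-fold (adjusted p = 0.000425), and its second probe set fell by 2.29 ± 0.25 (adjusted p = 0.00013).

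Elovl6, Elovl2 and Elovl1, which lengthen saturated, polyunsaturated and very long chains, differed by 0.32, 0.57 and 0.49, and none was called. For these genes the third quiescent array stood above the other quiescent arrays. Elovl1 had signals of 8.47, 9.76 and 10.51 in activated cells and 8.04, 7.67 and 11.55 in quiescent cells, and its interval ran from -1.51 to 2.49. Its other tested probe sets differed by 0.57, -1.53 and 1.29 over all arrays, and none was called. Without the third quiescent array Elovl1 and Elovl2 were called higher, by 1.72 (adjusted p = 0.0360) and 0.94 (adjusted p = 0.0466), in a fit that called 21.1% of all genes higher. Leaving out the other arrays in turn gave lowest differences of -0.22 for Elovl1 and 0.33 for Elovl2, without a call.

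No tested enzyme of the synthesis step itself was called. Acly, which makes cytosolic acetyl-CoA from citrate, had signals of 12.24, 12.65 and 12.71 in activated cells and 12.31, 12.11 and 12.46 in quiescent cells. The arrays overlapped, and the difference was 0.24 (interval -0.30 to 0.78). Fasn had signals of 11.76, 12.22 and 11.92 in activated cells and 10.51, 11.03 and 11.97 in quiescent cells. The first and second quiescent arrays were low and the third lay within the activated range. Its difference was 0.80 ± 0.36 (adjusted p = 0.109), and it was 1.20 without the third quiescent array (adjusted p = 0.00594) but 0.47 without the first (adjusted p = 0.305). Acaca, the acetyl-CoA carboxylase of the cytosol, differed by -0.36 (adjusted p = 0.421) by its brightest probe set and by 0.85 ± 0.30 (adjusted p = 0.0503) by the other.

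Acacb, the carboxylase at the mitochondrial surface, was too dim for the test. Its signals were 3.58, 5.07 and 1.45 in activated cells and 7.12, 8.06 and 8.49 in quiescent cells. The first activated array and the third lay at or below their background, and all quiescent arrays lay above theirs. By this brightest probe set the signal was at least 8.64-fold lower in activated cells, a bound taken against the background. The other probe set of Acacb, also too dim for the test, did not separate the groups. It had signals of 4.06, 5.09 and 5.57 in activated cells and 4.77, 6.72 and 5.27 in quiescent cells, a difference of -0.68.

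Most genes had more than 1 probe set, and these did not always give the same answer. Of 81 probe sets of the 35 genes 73 were bright enough to test, and 22 of the 73 were called lower and none higher in limma. At an unadjusted p under 0.05, 2 of the 73 were higher. Among all 22608 probe sets tested singly, 16.3% were called lower and 15.6% higher, 31.9% in all. Of the 22 genes with several tested probe sets, 14 had differences of 1 sign and 8 had both signs, and no gene had calls in both directions. Mvk was among the genes whose call turned on the probe set, since its dimmer one fell by 1.53 ± 0.47 (adjusted p = 0.0295). Probe sets of a gene can report different transcript ends, and their agreement is a description of these arrays.

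**Figure D3:**
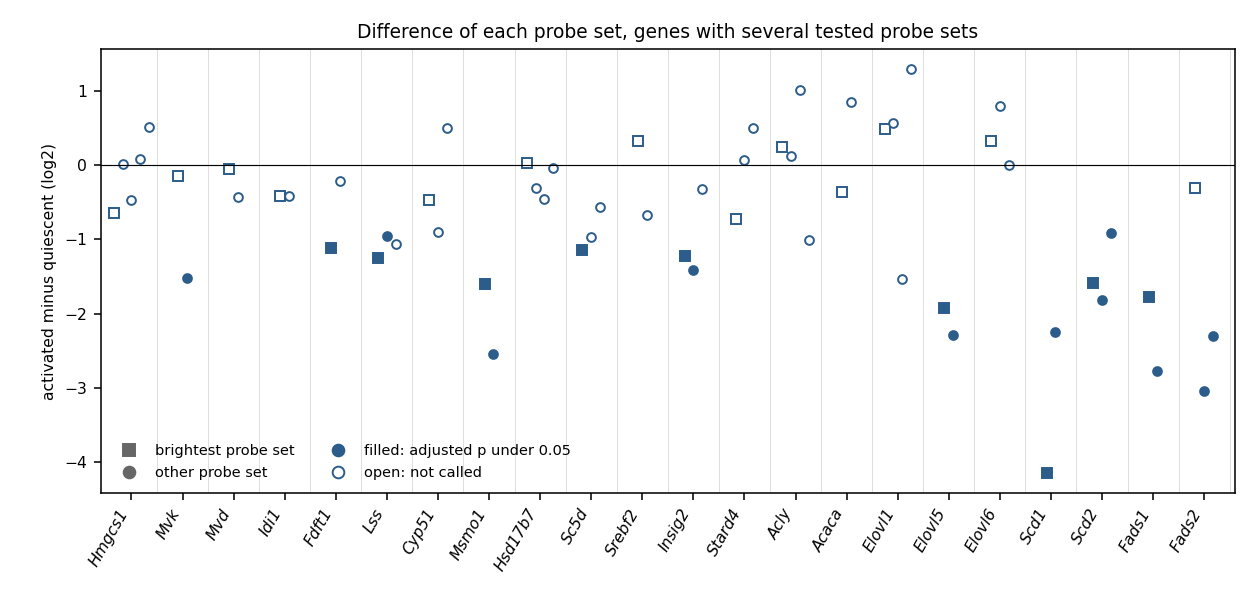
Difference between activated and quiescent cells in log2 units (y axis) for each tested probe set of the 22 genes that have several (x axis); squares mark the brightest probe set, circles the others, and filled symbols passed an adjusted p of 0.05. Every filled symbol lies below 0, and the 2 dimmer probe sets of Fads2 lie far below its brightest one.

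The calls of the sterol enzymes depended on how the arrays were scaled. After scaling to the hybridisation controls, 4 genes were still called lower, namely Scd1 (-3.50, adjusted p = 0.000259), Elovl5 (-1.28, 0.00416), Scd2 (-0.94, 0.0158) and Fads1 (-1.13, 0.0168), in a fit that called 8.15% of all genes lower. None of the 17 sterol enzymes was called in limma under that scaling, and 1 was lower at an unadjusted p under 0.05. Fasn was then called higher, at 1.44 (adjusted p = 0.0467), where 26.4% of all genes were. The median of the sterol enzymes became 0.18. This scaling shifts every gene alike, so it leaves the 0.48 by which that median lies below the median of all tested genes as it was. With no filter the same gap was -0.08 for the sterol enzymes, -0.14 for the regulators and 0.06 for the fatty acid enzymes. With the stricter filter at the median signal it was -0.56, -0.62 and -0.40, in the same order of lists.

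Of the other genes of the sterol route and of SREBP processing, 8 of 11 listed were tested, 1 was called higher and 1 lower, with a median of 0.38. Each count is 12.5%, beside 17.3% of all genes tested called higher and 17.6% lower. Erlin1, part of a complex that takes part in degrading sterol pathway proteins, had signals of 10.11, 9.91 and 10.17 in activated cells and 8.26, 8.43 and 8.46 in quiescent cells. The groups were clearly separate, and Erlin1 rose by 1.68 ± 0.33 (adjusted p = 0.00335). Rnf139, a ubiquitin ligase of the endoplasmic reticulum, fell by 1.41 ± 0.32 (adjusted p = 0.00634), a call that ended on the scale of the hybridisation controls (adjusted p = 0.117).

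Of the other fatty acid genes 22 of 25 listed were tested, 9 were called lower (40.9%) and 1 higher (4.55%), with a median of -0.24. Among all genes tested 17.6% were called lower and 17.3% higher. Of the 9, 3 passed the filter only through their quiescent signals, and the count leans towards lower calls for that reason. The largest differences belonged to an elongase and a pair of desaturase relatives, each at or below background on 1 activated array. They are those 3 genes, so bounds are given with no test. Elovl7 had signals of 3.96, 4.60 and 4.62 in activated cells and 9.97, 8.25 and 9.60 in quiescent cells, at least 25-fold lower in activated cells. Scd3 was at least 13.4-fold lower in activated cells and Fads6 at least 14.4-fold lower. The gene called higher was Thrsp, a small lipogenic protein of liver and fat, which rose by 0.90 ± 0.24 (adjusted p = 0.0137) and reached an adjusted p of 0.0664 at most when 1 array was left out; it was chosen after its value was seen.

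The pathway and the marker lists can be set side by side on each array. Relative to each gene's mean over the 6 arrays, the median of the 17 sterol enzymes was -0.32, -0.32 and -0.33 on the activated arrays and 0.43, 0.19 and 0.23 on the quiescent arrays. The 4 desaturases stood at -0.73, -0.91 and -0.88 on the activated arrays and at 1.41, 0.79 and 0.78 on the quiescent arrays. The activated arrays were close together in both groups of genes, and the first quiescent array was the highest. Other groupings of the pathway were highest on the third quiescent array. All 34 tested genes stood at 0.28, 0.13 and 0.46 on the quiescent arrays. The regulators stood there at 0.24, -0.11 and 0.65, and the fatty acid enzymes at -0.10, -0.25 and 0.46.

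On the activated arrays the 12 astrocyte and quiescent stem cell markers stood at -1.71, -1.38 and -1.13. On the quiescent arrays they stood at 1.68, 1.19 and 1.396, in the same order as the sterol enzymes (0.43, 0.19 and 0.23). The hybridisation controls had that order too, at 14.94, 14.01 and 14.04 on the quiescent arrays. Background (6.10, 5.46 and 5.45) and the Gapdh 3′ minus 5′ difference (2.59, 2.01 and 1.54) were also highest on quiescent array 1. Whether the order of the sterol enzymes follows the markers or these technical measures was not tested. The median over all 34 tested genes had another order on the quiescent arrays, shared by the 11 oligodendrocyte markers. Their medians were -2.92, -0.87 and -3.31 on the activated arrays and 2.33, 1.64 and 3.78 on the quiescent arrays, highest on the third quiescent array. Their summed signals were 2769, 6465 and 2457 on the activated arrays and 51468, 22696 and 89045 on the quiescent arrays. Scd1, at 12.23, 11.89 and 12.19 on the quiescent arrays, was also lowest on the second of them but was highest on the first. The share of the lipid gene differences that comes from oligodendrocyte RNA was not tested.

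**Figure D4:**
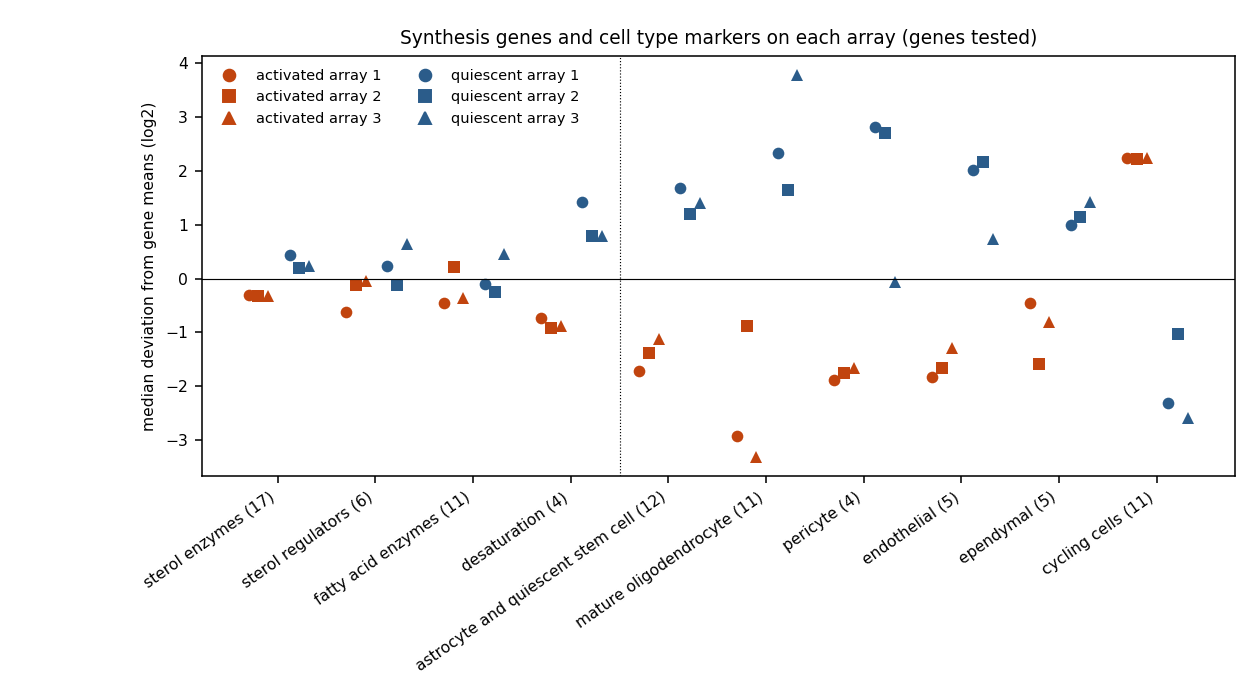
Median deviation in log2 units (y axis) of the tested genes of each list from their own means over the 6 arrays, for each activated array (orange) and each quiescent array (blue); list sizes stand in brackets on the x axis, and the dotted line parts the lipid genes from the cell type markers. The sterol enzymes are at -0.32, -0.32 and -0.33 on the activated arrays and 0.43, 0.19 and 0.23 on the quiescent arrays. The third quiescent array is the highest for the oligodendrocyte markers, the sterol regulators and the fatty acid enzymes, but not for the desaturases.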

How the data were processed

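Total RNA was extracted with the miRNeasy kit, amplified with a NuGEN Pico kit and labelled with biotin for Affymetrix arrays, per the labels' protocols. The authors deposited 1 value per probe set and array, which per the submitters' processing notes came from MAS5, whose version is not given in the sources used here. The deposited values are log2 signals, a scale read from the values themselves, since undoing the log gave every array the same trimmed mean (2% removed at each end). Amplification can compress or stretch differences, and MAS5 scaling sets the average signal equal on all arrays. Detection calls were not used here, and the number of arrays, 3 per group, limits the precision.

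Of 45101 probe sets, 64 controls were left out, 34945 named 1 gene, 932 several and 9160 none in the platform annotation; only those of 1 gene were used, with the symbols updated through RefSeq (99.4% of gene identifiers found). The brightest probe set over all 6 arrays stood for a gene, and genes were tested whose mean was at least 6.02, the 40th percentile over every probe set. Values were fitted with limma 3.58.1 (lmFit and eBayes with a trend) in R 4.3.3, with Benjamini-Hochberg adjustment over all 11576 genes, and the script was tested on simulated data. The background of an array was the 95th percentile of its 27 bacterial control probe sets; where an array of the lower group lay at or below it, the fold was taken against the background and given as a lower bound. The hybridisation scaling used 18 control probe sets. Technical measures were compared with two-sided exact permutation tests (scipy 1.17.1).

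Every gene of the pathway was named, and from each list of other pathway genes the up to 3 called genes with the largest absolute difference. The genes, lists and tests were chosen with earlier results of these data known. The alternatives covered the filter, quantile normalization, hybridisation control scaling, raising to the background, added pseudocounts of 16 and 64, the mean of probe sets, leaving out probe sets that can match several transcripts, no trend, the replicate number as a block and each array left out in turn. Testing each probe set on its own was chosen after seeing the data.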

Additional observations from a re-analysis of the deposited data

How the results depend on the processing

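Over 17 alternatives the 34 tested genes gave 578 single comparisons with the reported value: 516 kept direction and side of the threshold, 16 lost a call, 12 gained one and 34 turned in sign, of which none was called on either side. Scaling to the hybridisation controls gave 3059 genes higher and 943 lower, 0 sterol enzymes and 0 regulators lower, 1 fatty acid enzyme higher, and medians of 0.18, 0.12 and 0.34 for sterol enzymes, regulators and fatty acid enzymes. It turned Hmgcs1 (0.0057), Mvk (0.50), Mvd (0.60), Idi1 (0.23), Cyp51 (0.18), Scap (0.44), Insig1 (0.32), Acaca (0.29) and Fads2 (0.34), and these follow from a shift common to all genes. With no filter the median of all genes was -0.39, against 0.01, and the contrast with the pathway's median was nearly gone. With the filter at the median signal the median of all genes was 0.10 and that of the pathway stayed at -0.38. Quantile normalization turned Sqle (-0.0046) and Hsd17b7 (-0.024). The mean of probe sets turned Fdps (-0.23), Hsd17b7 (-0.20), Srebf2 (-0.17), Acly (-0.37) and Acaca (0.25) and ended the call of Fdft1 (-0.50), and leaving out probe sets of several transcripts turned Hsd17b7 (-0.30) and Elovl1 (-1.53) and also ended the call of Fdft1 (-0.21); the cause was not tested. Leaving out 1 array at a time gave 1313 to 2440 genes higher, lowest without the second activated array, and 1540 to 2176 lower. It gave 0 to 1 regulators lower and 0 to 3 fatty acid enzymes higher, with 3 (Fasn, Elovl1 and Elovl2) without the third quiescent array. The median of the sterol enzymes ran from -0.76 to -0.40, that of the regulators from -0.66 to -0.41 and that of the fatty acid enzymes from -0.31 to 0.10, with -0.76 and 0.10 without the third quiescent array. Genes that changed sign without an array ranged from -0.31 to 0.0040 (Mvk), -0.16 to 0.10 (Mvd), -0.23 to 0.51 (Nsdhl), -0.29 to 0.57 (Hsd17b7), -0.40 to 0.53 (Ebp), -0.52 to 0.23 (Scap), -0.22 to 1.72 (Elovl1) and -0.55 to 0.10 (Fads2). The labels number the replicates 1 to 3 in both groups, and no pairing by number was seen in the signals. Deviations of same-numbered arrays correlated at 0.06, -0.02 and 0.03 across genes, and those of the other pairs at -0.08 to 0.05. Whether same-numbered replicates were collected together was not tested. With the replicate block 1955 genes were called higher and 1979 lower, and no call of a pathway gene changed. Signal over background limited Acacb most, since 2 of its 3 activated arrays gave only a bound.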

Other observations

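Genes that take up, store or remove sterols were followed beside those that make them. Of 14 listed genes 7 were tested, 6 were called lower in activated cells and none higher (nor at an unadjusted limma p under 0.05), with a median difference of -2.66; 17.6% of all genes were called lower. Cyp7b1, an oxysterol hydroxylase, had signals of 7.25, 6.35 and 6.21 in activated cells and 12.17, 11.49 and 11.39 in quiescent cells. Those groups were widely separate, and Cyp7b1 fell by 5.08 ± 0.42 (limma, adjusted p = 3.93e-05). Abcg1, a transporter that exports sterols from the cell, had signals of 6.51, 6.17 and 6.31 in activated cells and 9.20, 9.26 and 10.79 in quiescent cells, and fell by 3.42 ± 0.53 (adjusted p = 0.000793). Npc1, which moves cholesterol out of lysosomes, had signals of 8.74, 9.21 and 8.57 in activated cells and 11.81, 11.61 and 11.48 in quiescent cells, and fell by 2.79 ± 0.30 (adjusted p = 0.000122). With the arrays scaled to those controls that are added at hybridisation, 4 of the 6 were still called lower, in a fit that called 8.15% of all genes lower.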
